A study of Arabidopsis thaliana with 12 samples.

Results

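Genes annotated as heat shock proteins or chaperones were examined in Arabidopsis roots exposed to gold. They were the transcript clusters, the array's unit for a gene, whose description in the deposited tables held the words heat shock, chaperone, DnaJ or BAG. This rule found 28 of the 2762 transcript clusters listed. Of these, 13 of 800 were in the gene table and all 28 were in the exon table, 15 of them there alone. No description held the word BAG.

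Seedlings of the wild-type accession Col-0, 12 days old and grown hydroponically, stood for 12 h with only their roots in water that held gold at 10 ppm, at a pH of 4.2. Control seedlings stood in distilled water of that pH, and both groups were without nutrient medium during that time. The labels spell the gold salt HAuClO4 and the study's methods give chloroauric acid. Each group had 3 biological replicates of whole roots from many seedlings, and the 6 arrays stand in the deposit as 12 samples, once summarized by gene and once by exon. The tables analysed here give 1 average log2 signal for each group, so the values below are the authors' averages, with no spread over arrays and no test. They list only genes and exons that the authors kept for a change of more than 2-fold and a low ANOVA p-value. The study's methods name no correction of that p-value for the number of features. Because only kept features are listed, a gene that is not listed either missed a criterion or is named by no feature. These cases cannot be told apart here. For the same reason the labelled tissue could not be checked against root marker genes. In whole roots, a change in the share of a cell type and a change of RNA per cell cannot be told apart.

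Heat shock proteins help other proteins to reach or keep their fold. Small heat shock proteins bind unfolding proteins and hold them in a form that can be refolded. Proteins of the HSP70 family refold them in cycles of ATP hydrolysis, J proteins (also called DnaJ or HSP40) bring clients to HSP70 and start its cycle, and HSP101 pulls proteins out of aggregates. In plants, heat shock factors switch on these genes under heat and under other stresses that damage proteins, and small heat shock proteins are made for the cytosol and for each of several organelles.

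All 13 members in the gene table were higher in gold-treated than in control roots. Of all genes listed there, 65.4% were higher, and of the 629 that name a locus, 66.6% were. The differences ran from 1.07 to 1.82 on the log2 scale, with a median of 1.41, beside a median of 1.39 over the 523 listed genes that were higher. Over those 523 the differences ran from 1.00 to 4.70. A difference of 3-fold or more was found for 4 of the 13, beside 36.3% of all listed genes that were higher and 34.4% of those among them that name a locus. Of all genes listed in either direction, 23.8% were higher by as much, and 22.9% of those that name a locus. In the exon table, 45 of 52 member exons were higher in gold, beside 54.6% of all listed exons. A difference of 3-fold or more upward was found for 11 of these 45, beside 40.2% of all exons that were higher and 21.9% of all listed exons. The members' share of such large differences was thus not above that of other features that were higher.

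**Figure D1:**
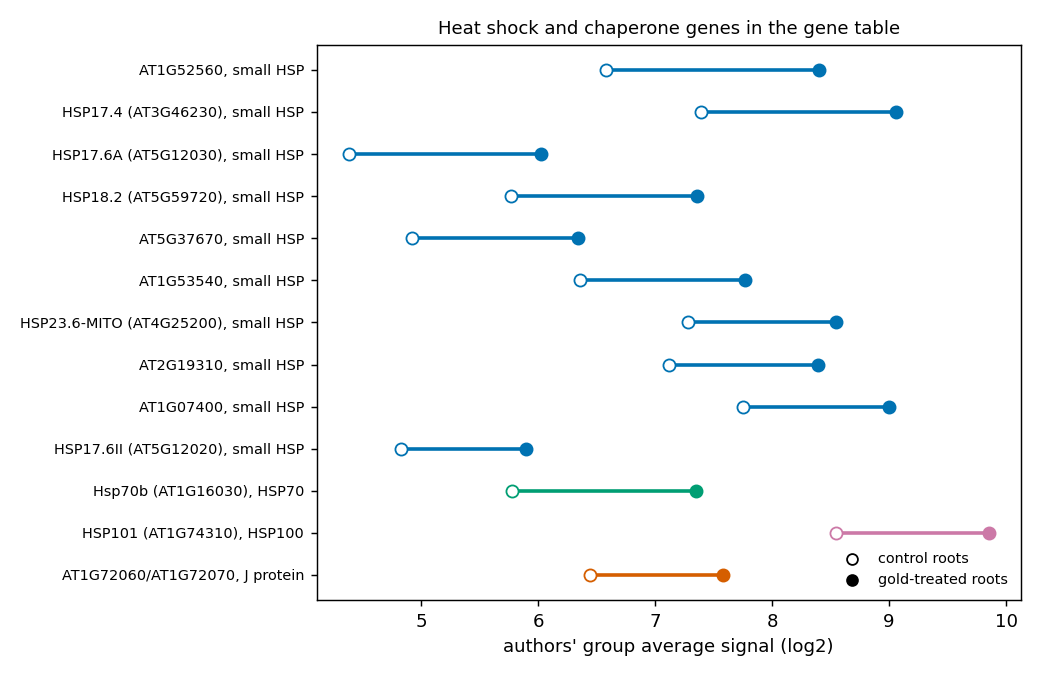
Control (open circles) and gold-treated (filled circles) group average log2 signal of the 13 members in the gene table, coloured by class. Every line runs upward from control to gold, by 1.07 for HSP17.6II to 1.82 for AT1G52560, and levels of different genes are not comparable on an array.

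**Figure D2:**
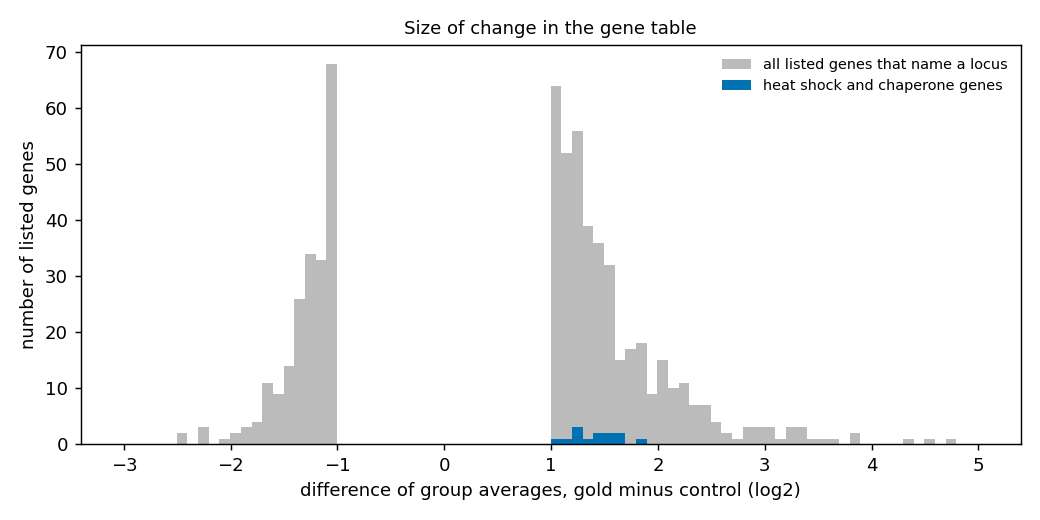
Number of genes in the gene table (vertical axis) by log2 difference of the group averages, gold minus control (horizontal axis), for the 629 genes that name a locus (grey) and the 13 members (blue). The gap in the middle is the authors' 2-fold criterion, and the members lie among the smaller and middle upward differences, up to 1.82.

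Small heat shock proteins made up 15 of the 28 members and 10 of the 13 in the gene table. Descriptions gave a size in kDa for 9 of them, from 15.7 to 23.6. The class I proteins of the cytosol led by number. HSP17.4 (AT3G46230) had a log2 signal of 7.39 in control and 9.06 in gold roots, 3.18-fold higher. Its 2 listed exons differed by 1.94 and 1.73. HSP18.2 (AT5G59720) had 5.77 in control and 7.36 in gold roots, 3.01-fold higher. AT1G53540, described as an HSP20-like chaperone, had 6.36 and 7.77, 2.66-fold higher. AT1G07400, described as a class I heat shock protein, had 7.75 and 9.00, 2.38-fold higher. The 4 genes lie on chromosomes 1, 3 and 5, and every listed exon of them was higher in gold.

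Both genes of cytosolic class II were listed, HSP17.6A (AT5G12030) and HSP17.6II (AT5G12020). They are next to each other on chromosome 5 in the gene order of the RefSeq annotation, the only members that are direct neighbours. HSP17.6A had a log2 signal of 4.38 in control and 6.02 in gold roots, 3.12-fold higher, and its 3 exons differed by 1.53, 1.74 and 2.03. HSP17.6II had 4.83 and 5.90, 2.10-fold higher, which is the smallest difference among the 13 genes. It was also the only one of the 13 with a signal below 6 in both groups, although its single listed exon stood at 7.26 in control and 8.42 in gold roots. Probes of close copies can share signal on an array, and how far the pair was told apart was not tested.

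Small heat shock proteins made for organelles were higher as well. AT1G52560, an HSP20-like chaperone of the mitochondrion, had a log2 signal of 6.58 in control and 8.40 in gold roots, and at 3.53-fold higher it had the largest gene-level difference of the 13. HSP23.6-MITO (AT4G25200), also mitochondrial, had 7.28 and 8.55, 2.41-fold higher, with 3 exons between 1.15 and 1.39. The third mitochondrial gene, AT5G51440 (heat shock protein 23.5), was listed by exons alone, 1 at 8.68 in control and 9.76 in gold roots and 1 at 4.70 and 5.81. The differences of these genes thus lay on both sides of the median of the 13.

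The peroxisomal AT5G37670 (heat shock protein 15.7) had a log2 signal of 4.92 in control and 6.34 in gold roots, 2.68-fold higher. It has 1 listed exon, which carries the same values as the gene and so adds no second measurement. ATHSP22.0 (AT4G10250), made for the endoplasmic reticulum, was listed by exons alone. Its exons stood at 6.61 in control and 8.32 in gold roots, and at 6.18 and 7.40. HSP21 (AT4G27670), the small heat shock protein of the chloroplast, was also listed by exons alone, and all 3 of its exons lay close to the 2-fold criterion, with differences of 1.12, 1.09 and 1.02. Each compartment sought in the lists described below had at least 1 small heat shock protein listed, all of them higher in gold. These locations are not in the descriptions, and the lists were chosen with earlier results of these data known. Outside the lists, the exons listed for AT1G54840 and for the symbol ACD32.1 were lower, each in a feature shared with another gene.

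Among the remaining small heat shock proteins, AT2G19310, an HSP20-like chaperone, had 7.12 in control and 8.39 in gold roots, 2.41-fold higher. AT1G54050, of the same description, had 1 listed exon at 7.67 and 8.73. The exception in direction was AT1G54840, which encodes an alpha-crystallin domain protein known as IDM2 that takes part in active DNA demethylation. It had 1 listed exon, at 4.50 in control and 3.14 in gold roots, 2.57-fold lower. That exon belongs to a feature which also names NF-YC3, a subunit of a transcription factor, so the table does not tell which gene was lower. Over the 15 genes, 28 of 29 exons were higher.

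HSP101 (AT1G74310), the disaggregase of the cytosol, had a log2 signal of 8.55 in control and 9.85 in gold roots, 2.46-fold higher. It had more listed exons than any other member, 6, and all were higher. The differences ran from 1.19, in an exon at 10.52 in control and 11.71 in gold roots, to 2.15, in one at 5.47 and 7.62. The exons listed for this feature thus spread over 0.96 on the log2 scale, the widest range of the 13 genes. The gene-level difference of 1.30 lay inside that range. The feature also names the neighbouring AT1G74300, a lipase family gene, and which of these genes each exon belongs to was not tested.

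Hsp70b (AT1G16030), the only HSP70 protein among the members, had 5.78 in control and 7.35 in gold roots, 2.97-fold higher. Its 2 exons, at 4.68 and 6.25 and at 7.93 and 9.51, gave nearly the same difference, 1.57 and 1.58. This made it the fifth largest gene-level difference among the 13, and the first after 4 small heat shock proteins.

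J proteins were the second largest class, with 7 members, and were mixed in direction. Of the 7, 5 had all their listed exons higher and 2 had them lower. In the exon table alone, where 6 of the 7 were listed, both directions were common among genes in general. All listed exons were higher there for 44.6% of genes with 1 listed exon and for 36.7% of those with 2 or more. Only a single J protein was in the gene table, AT1G72070, in a feature shared with its neighbour AT1G72060, a serine-type endopeptidase inhibitor. The feature had 6.44 in control and 7.58 in gold roots, 2.20-fold higher, and which of these genes gave the signal was not tested.

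ATERDJ3A (AT3G08970), a J protein of the endoplasmic reticulum that pollen tubes need at high temperature, had 1 exon at 4.95 in control and 6.80 in gold roots and another at 7.05 and 8.22. The larger of these differences, 1.85, was the largest upward one among exons of members outside the gene table. AT2G20560, a DNAJ heat shock protein, had exons at 6.62 and 7.70 and at 3.86 and 5.12. AT1G80030, known as DJA7, had 1 exon at 4.99 and 6.35, and AT2G21510 had 1 at 5.98 and 7.02.

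The J proteins that were lower each had a large difference. The exon of AT3G12170 stood at 5.89 in control and 3.46 in gold roots, a signal below 6 in both groups. At 5.39-fold lower it had the largest difference in either direction among the 52 member exons. The exon of AT4G39960, known as DJA5, a J protein of the chloroplast, stood at 7.46 in control and 5.50 in gold roots, 3.89-fold lower. Each rests on 1 exon, neither gene was in the gene table, and their other exons are not in the tables analysed here.

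Members whose name comes from metal delivery rather than from protein folding were NAKR2 (AT2G37390) and NAKR3 (AT3G53530), both described as chloroplast-targeted copper chaperone proteins. NAKR2 had exons at 6.75 in control and 5.61 in gold roots and at 3.99 and 2.96, lower by 1.14 and 1.03 on the log2 scale. NAKR3 had 1 exon, at 3.71 in control and 5.27 in gold roots, 2.95-fold higher. These relatives thus differed in opposite directions, in exons that for NAKR3 and for 1 of those of NAKR2 had a signal below 6 in both groups.

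The last 2 members each had 1 exon, lower in gold and close to the 2-fold criterion. AT4G29920, described as related to heat shock proteins and known as SMXL4, is a distant relative of HSP101 that acts in phloem development. Its exon stood at 6.68 in control and 5.62 in gold roots. AT5G55220, a trigger factor, a chaperone type that in bacteria meets new chains at the ribosome, had an exon at 6.75 and 5.70.

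**Figure D3:**
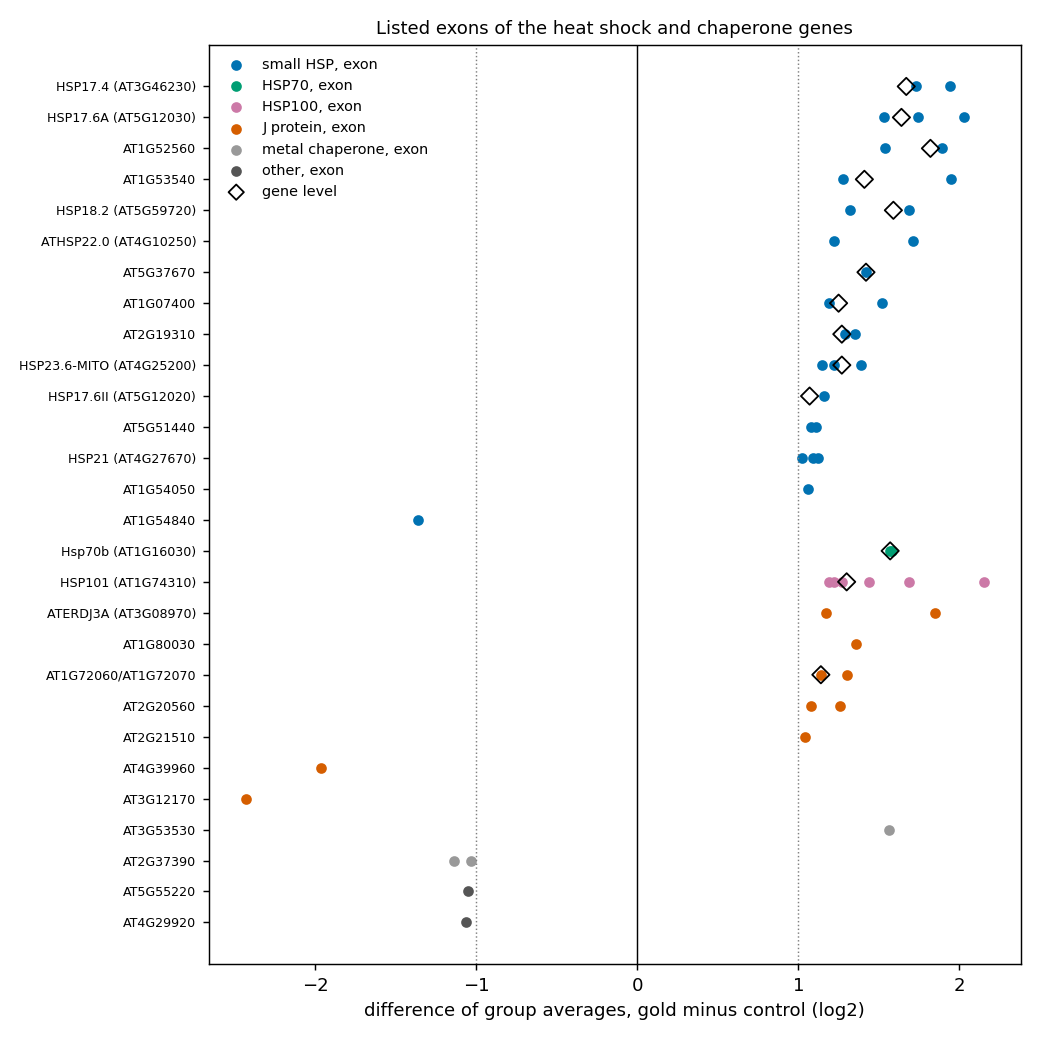
Log2 difference of the group averages, gold minus control (horizontal axis), of every listed exon (filled points) of the 28 members (rows), coloured by class, with the gene-level difference as an open diamond for the 13 members in the gene table. Dotted lines mark a 2-fold difference, and the 45 exons on the right and 7 on the left never share a row.

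Exon and gene values were set side by side for the 13 genes in both tables. All 30 of their listed exons were higher in gold, beside 54.6% of all listed exons. That share includes exons of genes outside the gene table, of which only 42.0% were higher. The share over exons of genes in the gene table is therefore above 54.6%, and it was not computed. In 10 of the 13 the gene-level difference lay within the range of its exons. One of these is AT5G37670, whose only listed exon carries the same values as the gene. It lay below that range for HSP17.4, HSP17.6II and AT2G19310. Exons are parts of the gene-level measurement on the same arrays, so this is no independent repeat.

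The 15 members listed by exons alone looked different. Of their 22 exons, 15 were higher and 7 lower, beside 42.0% higher among all listed exons of genes outside the gene table. With 2 or more listed exons, 5 of 6 members were higher, which is 83.3%, against 36.7% of 430 such genes over the whole table. With 1 listed exon, 4 of 9 members were higher, which is 44.4%, beside 44.6% of 1532 such genes. In members with a single listed exon the share that was higher was thus close to that of the whole table.

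Signal strength was followed in both directions. All 7 member exons that were lower in gold ended below a log2 signal of 6 in gold roots, as did 50.6% of all 2262 listed exons that were lower. Both groups were below 6 for 3 of these 7 exons and for 25.7% of all listed exons that were lower. The same held for 5 of the 45 member exons that were higher and for 19.5% of all such exons. At the gene level it held for 1 of the 13 members and for 151 of the 800 listed genes. Among the 13 genes, 5 had a control signal below 6, namely HSP17.6A, HSP17.6II, AT5G37670, HSP18.2 and Hsp70b, and all of these except HSP17.6II stood above 6 in gold roots. The part of low signal in these differences was not tested.

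Families of the heat shock response were then followed through both tables by 14 lists with 82 genes in all, whether or not the descriptions matched. The lists were chosen with earlier results of these data known, so their counts are a description and no test. For comparison, the tables name 9.70% of all protein-coding genes in RefSeq, and the gene table alone names 2.30%. Of the 18 small heat shock proteins in the lists, 15 were listed, all higher in gold, 10 by gene and 5 by exons alone. The lists do not hold AT2G19310, which was higher, or AT1G54840, the 1 small heat shock protein of the description rule whose exon was lower. Nor do they hold ACD32.1, the symbol of a shared alpha-crystallin domain feature whose exon was lower. In class I of the cytosol 5 of 6 were listed, in class II 2 of 2, in the mitochondrion 3 of 3, and in the peroxisome, the endoplasmic reticulum and the chloroplast 1 of 1 each. Other classes of the cytosol or nucleus had 2 of 4. The 3 genes in neither table were AT1G59860, AT4G21870 and AT5G47600.

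The class I gene AT2G29500, described as an HSP20 family protein and so outside the wording of the rule, had a log2 signal of 6.95 in control and 9.02 in gold roots. At 4.20-fold higher it exceeded every one of the 13 members, and its 2 exons differed by 2.08 and 1.92. AT5G54660, in the list of other classes, had 1 exon at 2.85 and 4.59.

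The ATP-driven families had few listed members, as did genes in general. Of 14 HSP70 genes, Hsp70b was the only one in either table. None of 7 HSP90 genes was listed. Of HSP101 and its ClpB relatives of the organelles, 1 of 3 was listed, HSP101. In a separate list, not of ATP-driven families, none of 6 genes of folding in the endoplasmic reticulum and its stress signalling was listed. Among them were the calnexin CNX1 and the transcription factor BZIP60. The tables name 9.70% of all protein-coding genes, so few or no listed genes in lists this small say nothing particular about these families. Smaller differences in them were not measured here.

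Regulators and partners were followed last. Of 21 heat shock factors, 1 was listed, beside 9.70% of all protein-coding genes. This was HSFA2 (AT2G26150), which prolongs the heat response. It had 1 exon, at 4.16 in control and 5.24 in gold roots, 2.11-fold higher, with a signal below 6 in both groups. Of 6 other heat-induced genes, 2 were listed. MBF1C (AT3G24500), a transcriptional coactivator needed for tolerance of heat, had 8.05 in control and 9.26 in gold roots, 2.31-fold higher, and its 3 exons differed by 1.51, 1.16 and 1.09. HSA32 (AT4G21320), which maintains acquired tolerance of heat, had 1 exon at 7.38 and 8.52.

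BAG proteins, which bind HSP70 and release its client, gave 2 of 7 genes, in opposite directions. BAG2 (AT5G62100) had 7.28 in control and 6.12 in gold roots, 2.23-fold lower, and its exons, at 8.60 and 6.67 and at 8.55 and 6.69, were lower by 1.93 and 1.86. It was the only gene of the 14 lists that was lower. BAG6 (AT2G46240), known as a heat-induced member of the family, had 1 exon at 10.14 in control and 11.30 in gold roots. Over all 14 lists, 22 of 82 genes were listed, 13 higher by gene, 8 higher by exons alone and BAG2 lower, and 15 of the 22 were small heat shock proteins.

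**Figure D4:**
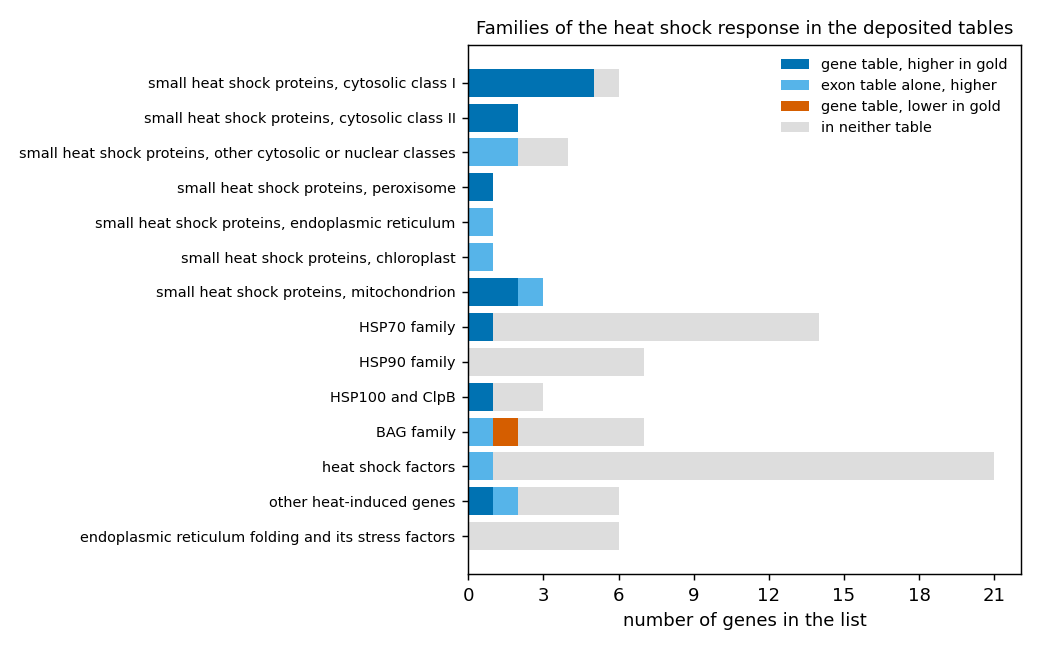
Number of genes (horizontal axis) of each of the 14 lists (rows) that were higher in the gene table, higher in the exon table alone, lower in the gene table, or in neither table. Small heat shock proteins are listed in 15 of 18 cases and HSP70 in 1 of 14. HSP90 is listed in 0 of 7 and heat shock factors in 1 of 21, beside 9.70% of all protein-coding genes. The lists were chosen with earlier results of these data known and do not hold AT1G54840, whose listed exon was lower.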

How the data were processed

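Per the study's methods, the authors scanned 6 Affymetrix AraGene arrays, 3 for each group, and summarized the probes by RMA in Affymetrix Expression Console, per gene and per exon. RMA corrects the background, brings all arrays to 1 distribution and gives log2 signals. The deposited log2 values are bi-weight averages of a group, which give outlying arrays less weight, on the tair10 annotation. The Transcriptome Analysis Console served for the authors' comparison, and the deposited tables used here hold only features past their fold and p-value criteria. Their 3 columns of fold change, p-value and FDR were not used here. Single-array values were not used here, and neither an error nor a test was computed. Arrays have no depth, and their number limits the precision.

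The difference of the 2 printed averages was taken for each gene and exon, and folds were computed from it. Members were matched by words, joined by transcript cluster, and named through RefSeq (TAIR10.1), where all 28 loci were found. RefSeq start positions were used to put the genes of each chromosome in order. The matching was checked on constructed rows with known answers. Members, lists and roles were chosen with earlier results of these data known. The text names all members in the gene table, members with several exons, the extremes of each class and all listed genes of the lists, and the other members were added so that each is described. Alternatives were a signal of at least 6, a difference of at least 3-fold, wider words, features that name 1 locus and protein chaperones alone. Backgrounds over genes that name a locus, over features that were higher and over RefSeq protein-coding genes were added with the data at hand. Python 3.11.15, pandas 2.3.3, numpy 2.4.6 and matplotlib 3.10.9 were used.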

Additional observations from a re-analysis of the deposited data

How the results depend on the processing

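Of the 13 genes higher in gold, 12 had a signal of at least 6 and 11 were features that name 1 locus. The setting of protein chaperones alone gave 12, although no metal chaperone was among the 13, and the gene it left out was not identified here. Wider words gave 14. At 3-fold or more there were 4, and 5 with wider words. The median gene difference of 1.41 became 1.42 with a signal of at least 6, with wider words or with 1 locus per feature, and 1.65 at 3-fold or more. The 3-fold setting selects on the difference itself, so the medians it gives, here and for exons, are no check on the size. The 45 exons higher in gold became 11 at 3-fold or more and 15 in members outside the gene table. The 7 lower exons became 4 with a signal of at least 6, 2 at 3-fold or more and 0 in members of the gene table. The median exon difference of 1.27 became 1.29 with a signal of at least 6, 1.74 at 3-fold or more, 1.43 in members of the gene table and 1.08 in the others. No paired analysis was possible because the tables used here hold group averages only, and no array was left out for the same reason. A planned search for heat shock elements in promoters was not run, since no promoter sequence was used here.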

Other observations

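Wider words (HSP, crystallin, chaperonin, cpn) added 5 genes that the descriptions of the rule miss, AT2G29500 being the only one in the gene table. The others were listed by 1 exon each. CHL-CPN10 (AT2G44650), a chloroplast co-chaperonin, stood at 5.00 in control and 6.27 in gold roots, 2.41-fold higher. AT1G26230, a chaperonin-like protein, stood at 3.15 and 4.33, below 6 in both groups. AT5G19855, an RbcX protein, which assists assembly of Rubisco, stood at 8.75 and 9.90, 2.22-fold higher. The feature with the symbol ACD32.1, whose description names an alpha-crystallin domain protein and a CCR4-associated factor, stood at 3.19 and 2.05, 2.20-fold lower. The table does not tell which of the genes in that description was lower.

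Listed neighbours of members were looked up in the RefSeq gene order. Beside the pair HSP17.6A and HSP17.6II and the 3 features that name a member and its neighbour, 4 members had a neighbour listed by exons alone: AT1G52560, AT2G21510, AT4G29920 and AT4G39960.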
